A study of Mus musculus with 2 samples.

Results

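The genes of RNA polymerase II (Pol II), Mediator, the TBP-associated factors (TAFs) and the general transcription factors were compared between iTreg cells cultured with and without an HDAC6 inhibitor. The members were chosen by symbol alone, as the rows named Polr2a to Polr2m, Med followed by a digit, Taf followed by a digit, or Gtf2, and 83 of the 23282 rows of the deposited tables matched. They were 13 Polr2, 31 Med, 23 Taf and 16 Gtf2 genes. The pattern also took in genes with other roles, namely Taf1a, Taf1b, Taf1c and Taf1d of the RNA polymerase I factor SL1, the TFII-I family genes Gtf2i, Gtf2ird1 and Gtf2ird2, the RNA-binding protein gene Taf15, and Med9os, an antisense transcript of Med9.

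As background, Pol II transcribes messenger RNA precursors, and the repeats in the tail of its largest subunit are phosphorylated as it moves from the promoter into the gene. The general factors TFIIA, TFIIB, TFIID, TFIIE, TFIIF and TFIIH assemble with it at the promoter, where TFIID, made of TBP and the TAFs, binds the core promoter and TFIIH opens the DNA and phosphorylates the tail. Mediator, with its head, middle, tail and kinase modules, carries signals from activators and repressors to this assembly.

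Naïve CD4+ T cells from the spleens of wild-type (WT) female C57BL/6 mice aged 7 to 10 weeks were activated through CD3 and CD28 under iTreg conditions, which were IL-2 (1 ng/ml), TGF-β1 (5 ng/ml) and antibodies against IL-4 and IFN-γ, and were harvested after 1 day. The Ctrl culture received DMSO and the TSA culture received 10 μM Tubastatin A, an inhibitor of the deacetylase HDAC6. TSA here stands for Tubastatin A and not for trichostatin A. By their labels both groups shared genotype, activation, cytokines and time. A single library was sequenced per condition, so no difference below has a replicate check and no p-value was computed, and the inhibitor cannot be told apart from any other difference between the 2 cultures or library preparations.

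The libraries were QuantSeq libraries, which read the 3' end of polyadenylated transcripts, so a transcript gives about the same number of reads whatever its length. Recovered from the deposited values, the reads on genes summed to 10846166 for Ctrl and 10432628 for TSA. All 5 T cell markers had reads in both libraries, from 602 (Cd3g) to 4531 (Lck) in Ctrl and from 794 to 4187 in TSA. Beyond counting error Cd3g (0.39) and Cd3d (0.25) were higher and Cd3e (-0.23) and Lck (-0.13) lower in TSA. Foxp3 had 1633 and 965 reads. Markers of other cells had few reads: the 3 B cell markers summed to 1 and 11 reads, the 2 NK cell markers to 0 and 1, the 4 myeloid markers to 26 and 21, the 2 CD8 markers to 80 and 87 and the 2 erythroid markers to 32 and 45, of which Hbb-bs had 4 and 17. Their part in the results was not tested. In such bulk RNA, fewer cells of a type and less RNA per cell cannot be told apart.

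Differences are given as the TSA value minus the Ctrl value on the deposited scale, log2 of a normalized count plus 1, so that a negative value means a lower level in the TSA library. Beside each stands the 95% exact Clopper-Pearson interval computed from the reads of the 2 libraries, which compares these libraries and covers counting error only. A gene was tested when it had at least 10 reads in at least 1 library, and "lower" or "higher by more than counting error" means that the whole interval lay on that side of 0. Of the 83 members, 80 were tested. The other 3 were Taf7l and Gtf2a1l, TAF and TFIIA genes known from germ cells, with 0 reads in both libraries (3 reads, the upper limit that a count of 0 allows, are a CPM of 0.277 in Ctrl and 0.288 in TSA), and Med9os, with 5 reads in Ctrl and 0 in TSA. The tested members had 13 to 4386 reads in Ctrl and 22 to 3417 in TSA.

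No tested member passed 2-fold. Over all 12164 tested genes 14.7% passed 2-fold in either direction, but these were mostly genes with few reads, and 2.78% passed among the 8188 genes whose normalized counts averaged 100 or more (called well counted below), to which 78 of the 80 tested members belong. In all, 32 members were lower and 9 higher by more than counting error, and for 39 the interval held 0. This balance depends on the scaling, since with the upper quartile, which raises every difference by 0.22, 15 were lower and 28 higher. That scaling moves all genes alike and brings the median of all tested genes to 0.24. The shares of other genes called on that scale are not given here, so these 2 counts have no background. As shares on the deposited scale, 40.0% of the members were lower and 11.2% higher. These stand against 28.0% and 28.1% of all tested genes and 36.5% and 23.4% of the well counted genes. The share of lower members was thus near that of well counted genes, and the share of higher members was below it.

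**Figure D1:**
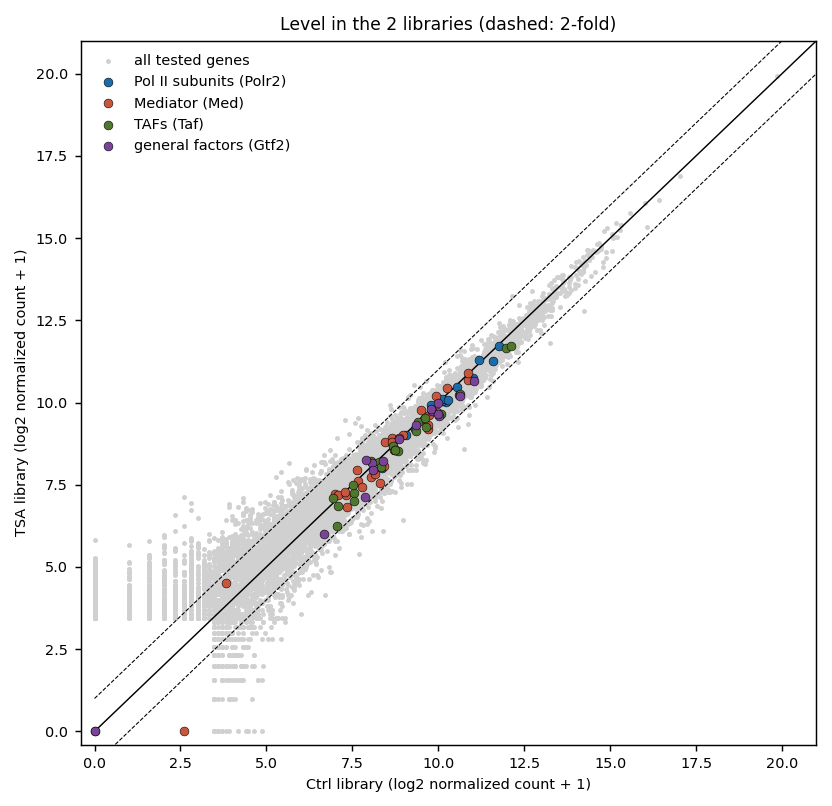
Level of each gene in the Ctrl library (x axis) and in the TSA library (y axis), both as log2 of the normalized count plus 1, with all 12164 tested genes in grey and the 83 members in colour by group. The tested members lie between the dashed 2-fold lines, and the members at or near 0 are Taf7l, Gtf2a1l and Med9os.

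At any size, 59 of the 80 tested members had a lower value in the TSA library, or 73.8%, where 48.6% of all tested genes and 57.1% of the well counted genes did. With scaling by total reads instead, which raises every difference by 0.070, the number was 47 of 80, or 58.8%, against 41.9% of all tested genes and 48.6% of the well counted genes. On that scale 27.8% of the well counted genes were lower and 30.2% higher by more than counting error, and the counts given with total-read scaling are to be read beside these shares. The median difference of the members was -0.12, that of the well counted genes was -0.058 and that of all tested genes was 0.015.

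At any size, 20 of 22 Taf, 11 of 13 Polr2, 11 of 15 Gtf2 and 17 of 30 Med genes were lower (16, 8, 9 and 14 with total-read scaling). The Taf group had the lowest median, -0.25, with 11 of 22 members lower by more than counting error and 0 higher. The Gtf2 group followed with a median of -0.17, with 6 of its 15 tested members lower by more than counting error and 1 higher. The Polr2 group had a median of -0.087, with 5 of 13 lower and 2 higher. Mediator was divided, with a median of -0.04 (0.03 with total-read scaling), 10 of 30 tested members lower and 6 higher by more than counting error. The shares are read against the 36.5% and 23.4% of well counted genes. They were 38.5% and 15.4% for Polr2 and, as counts, 11 and 0 of 22 for Taf, 6 and 1 of 15 for Gtf2 and 10 and 6 of 30 for Med. On the deposited scale Polr2, Gtf2 and Med were thus near the background for lower genes. With total-read scaling the lower shares were 38.5% for Polr2, 40% for Gtf2, 23.3% for Med and 40.9% for Taf, against 27.8% of well counted genes. The higher shares were 15.4%, 6.67%, 23.3% and 4.55%, against 30.2%.

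**Figure D2:**
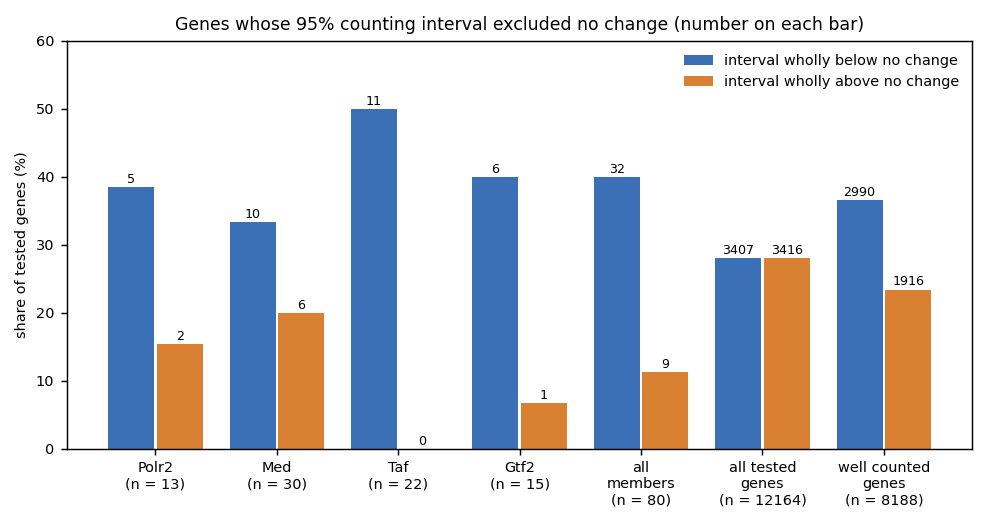
Share of tested genes (y axis, percent) whose 95% counting interval lay wholly below (blue) or above (orange) no change, for the 4 groups, all members, all tested genes and well counted genes, with the number of genes on each bar. The Taf group has 11 lower and 0 higher, while the Med group has 10 and 6.

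Summed over the group, TAF reads went from 18998 in Ctrl to 15654 in TSA, a log2 ratio of -0.29 (95% counting interval -0.32 to -0.26) after the authors' scaling. Taf1d alone held 23.1% of the Ctrl reads of the group, and without it the ratio was -0.27 (-0.30 to -0.23). The Gtf2 sum went from 11069 to 9596 reads, a log2 ratio of -0.22 (-0.26 to -0.18). The Polr2 sum, with 19359 and 18181 reads, gave -0.10 (-0.13 to -0.076). The Med sum, with 16347 and 16012 reads, gave -0.04 (-0.076 to -0.013). The same ratio was -0.070 over all genes and -0.077 over the well counted genes. The Med sum was thus less far below 0 than either, and the Polr2 interval held the value of the well counted genes. The intervals of the Taf and Gtf2 sums overlapped neither the Polr2 nor the Med interval, though members are not replicates and no test was made between groups. Gtf2h5 and Gtf2h1 held 18.9% and 14.3% of the Ctrl reads of the Gtf2 group. The Gtf2 sum without them is not given here, so its separation from Polr2 may rest on these genes.

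**Figure D3:**
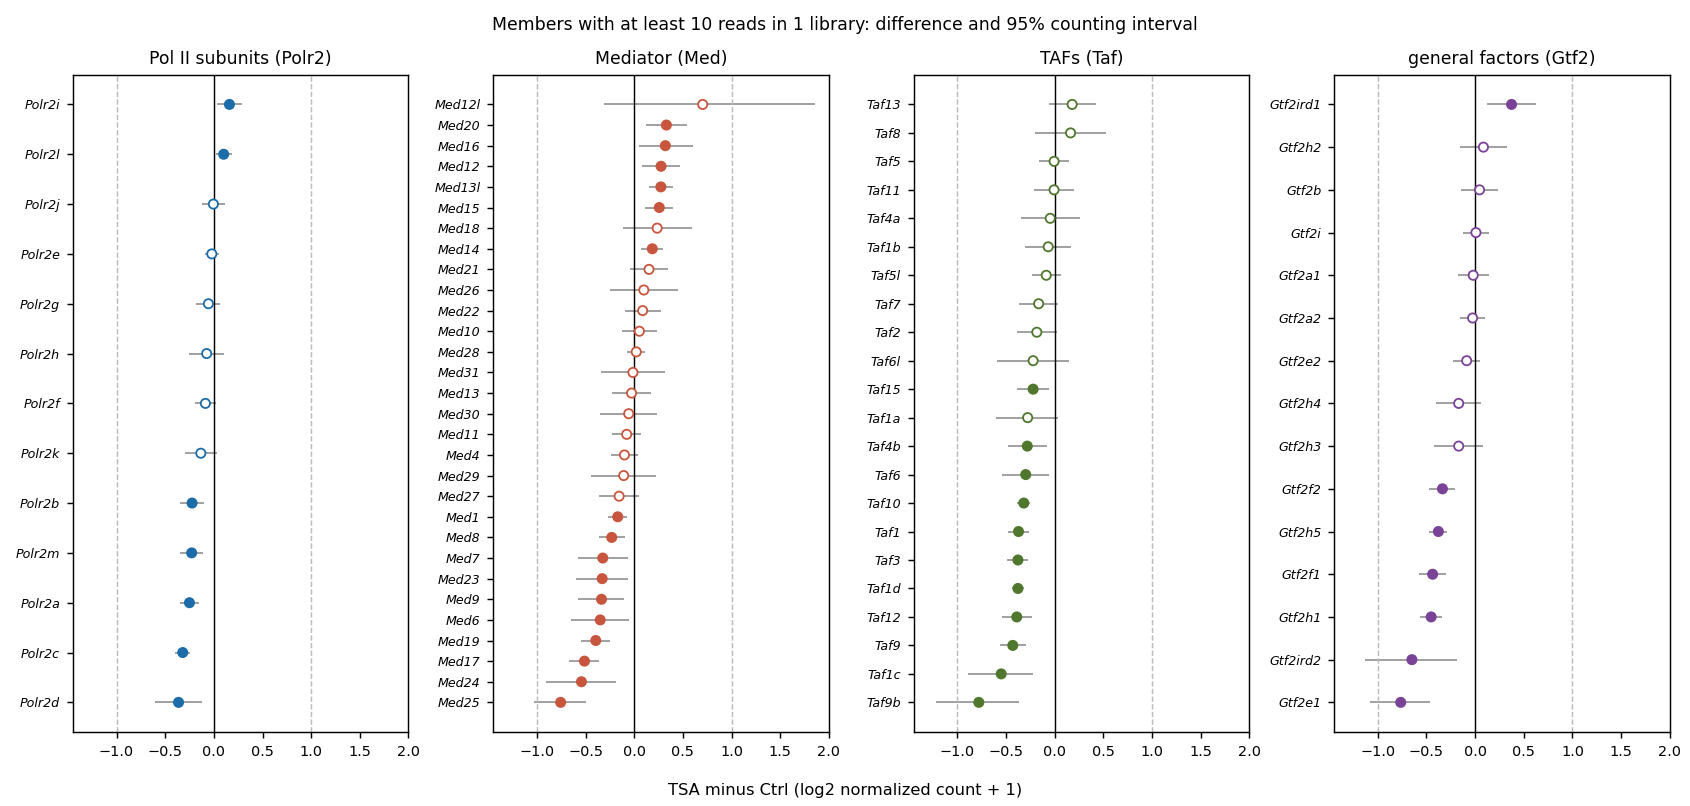
Difference between the libraries (x axis, TSA minus Ctrl on the log2 scale) for each of the 80 tested members, each on its own row in 4 panels by group. Bars are 95% counting intervals, filled points are members whose interval excluded 0, and dashed lines mark 2-fold; points range from -0.78 for Taf9b to 0.70 for Med12l, which rests on 13 and 22 reads.

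The promoters of the members at both ends of this range are printed here, because they show which genes the extremes are and how differently their starts are built. They are the 250 bases before the start farthest upstream of each gene, 5' to 3', in the RefSeq table of GRCm38.p6, with matches on either strand in capitals. For Med25 the GENCODE gene begins farther upstream, at 44892712 on the minus strand, so the stretch printed lies inside that gene. The motifs searched were the letters TATAAA for the TATA box, the letters CCAAT for the box of that name, the letters GGGCGG for the GC box and the letters CCGGAA for the ETS core. The first 3 genes had the lowest and the last 3 the highest differences among well counted members whose interval excluded 0.
Taf9b (chrX:106221159-106221408, minus strand): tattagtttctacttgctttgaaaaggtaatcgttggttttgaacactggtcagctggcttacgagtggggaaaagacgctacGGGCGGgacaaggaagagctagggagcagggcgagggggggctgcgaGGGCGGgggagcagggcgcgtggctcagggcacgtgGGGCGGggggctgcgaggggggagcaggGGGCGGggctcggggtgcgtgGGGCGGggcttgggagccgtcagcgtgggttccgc
Gtf2e1 (chr16:37539790-37540039, minus strand): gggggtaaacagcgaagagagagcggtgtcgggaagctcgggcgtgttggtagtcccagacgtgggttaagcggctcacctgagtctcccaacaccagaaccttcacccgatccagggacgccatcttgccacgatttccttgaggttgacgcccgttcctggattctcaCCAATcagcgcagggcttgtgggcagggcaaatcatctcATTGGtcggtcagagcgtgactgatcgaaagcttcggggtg
Med25 (chr7:44892425-44892674, minus strand): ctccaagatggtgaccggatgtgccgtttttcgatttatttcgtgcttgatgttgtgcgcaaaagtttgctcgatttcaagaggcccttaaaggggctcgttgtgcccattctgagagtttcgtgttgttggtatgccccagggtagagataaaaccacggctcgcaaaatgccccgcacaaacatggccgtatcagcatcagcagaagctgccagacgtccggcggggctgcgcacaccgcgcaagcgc
Gtf2ird1 (chr5:134456717-134456966, minus strand): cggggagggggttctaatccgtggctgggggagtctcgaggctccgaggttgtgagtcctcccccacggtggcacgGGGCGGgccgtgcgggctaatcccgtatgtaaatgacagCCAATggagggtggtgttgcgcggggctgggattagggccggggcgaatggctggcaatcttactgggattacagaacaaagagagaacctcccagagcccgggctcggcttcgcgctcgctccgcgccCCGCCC
Med20 (chr17:47611335-47611584, plus strand): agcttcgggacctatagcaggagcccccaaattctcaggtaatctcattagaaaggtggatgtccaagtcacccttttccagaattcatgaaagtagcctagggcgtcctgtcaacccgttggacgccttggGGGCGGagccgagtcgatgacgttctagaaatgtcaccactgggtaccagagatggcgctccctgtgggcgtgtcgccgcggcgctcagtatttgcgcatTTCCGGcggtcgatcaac
Med16 (chr10:79908939-79909188, minus strand): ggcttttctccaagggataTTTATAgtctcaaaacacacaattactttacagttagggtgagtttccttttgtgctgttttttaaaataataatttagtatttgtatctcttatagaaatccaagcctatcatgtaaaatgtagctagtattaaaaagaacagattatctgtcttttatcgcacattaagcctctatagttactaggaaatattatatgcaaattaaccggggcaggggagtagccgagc

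The Taf9b sequence held 5 GC boxes and 20 CG dinucleotides, and the Gtf2ird1 sequence 2 GC boxes and 22 CG dinucleotides. The Med16 sequence held a TATA-like match and 3 CG dinucleotides. No motif was common to the lower or to the higher genes printed. Of the 80 tested members, 69 had a promoter in the table. A GC box was found in 63.8% of them, against 59.2% of 9197 tested genes and 33.0% of all 27025 genes with a promoter, and an ETS core in 33.3%, against 23.4% and 12.3%. The shares for the CCAAT box were 34.8%, 36.8% and 34.5%. A TATA box was found in 13% of the members (9 of 69), in 6.18% of the tested genes and in 13% of all (3507 of 27025). A match is a description of the letters and not evidence of a bound factor.

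Within the polymerase, the subunits that only Pol II uses and those it shares with Pol I and Pol III were set side by side. Polr2a, on chromosome 11 from 69733997 to 69758637 (GRCm38), encodes the largest, catalytic subunit with the repeat tail. It had 2052 reads in Ctrl and 1742 in TSA, a difference of -0.25 (-0.34 to -0.16). Polr2b, which completes the active centre, had 1196 and 1034 reads, a difference of -0.22 (-0.35 to -0.10). Both large subunits were thus lower by a similar amount. Polr2c, part of the assembly platform, had 3045 and 2463 reads and a difference of -0.32 (-0.40 to -0.24). Its partner in that platform, Polr2j, had 1094 and 1101 reads and a difference whose interval, -0.13 to 0.12, held 0 and did not overlap that of Polr2c. In the stalk, Polr2d had 329 and 258 reads and a difference of -0.36 (-0.61 to -0.13), while Polr2g had 1099 and 1067 reads and a difference of -0.06 (-0.18 to 0.07), and these intervals overlap. Polr2i, a small subunit at the jaw that bears on fidelity, was higher, with 871 and 983 reads and a difference of 0.16 (0.03 to 0.29). In the 7 genes of subunits not shared, 4 were lower and 1 higher by more than counting error (36.5% and 23.4% of well counted genes), with a median of -0.22.

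Among the 5 genes of subunits shared by the 3 polymerases, none was lower by more than counting error and 1 was higher, again beside 36.5% and 23.4% of well counted genes. Polr2e had 3433 and 3417 reads, a difference of -0.02 (-0.09 to 0.05). Polr2l had 2335 and 2529 reads, a difference of 0.10 (0.02 to 0.18). Polr2f, Polr2h and Polr2k had differences of -0.09, -0.07 and -0.13 with intervals that held 0. The summed reads of the shared genes gave a log2 ratio of -0.0087 (-0.052 to 0.035) and those of the genes not shared gave -0.18 (-0.22 to -0.14), so the intervals of these sums did not overlap. Most reads of the shared sum came from Polr2e and Polr2l, and the median of the 5 shared genes was -0.07, with 4 of 5 lower at any size (3 with total-read scaling). With total-read scaling the counts were the same, 0 lower and 1 higher for the shared genes and 4 and 1 for the others. Polr2m, which encodes Gdown1, a protein that binds Pol II and limits its use of TFIIF, had 1246 and 1074 reads, a difference of -0.23 (-0.35 to -0.11).

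Mediator genes lay on both sides of 0. Their lowest tested member was Med25 of the tail, a target of activators, on chromosome 7 from 44876765 to 44892712. It had 312 reads in Ctrl and 186 in TSA, a difference of -0.76 (-1.03 to -0.49). Med24, also of the tail, had 162 and 112 reads and a difference of -0.54 (-0.91 to -0.19), and Med23 had 263 and 211 reads and a difference of -0.33 (-0.60 to -0.07). The remaining tail genes went the other way. Med15, which receives signals from SMAD and SREBP factors, had 723 and 873 reads and a difference of 0.26 (0.11 to 0.40), and Med16 had 195 and 246 reads and a difference of 0.32 (0.04 to 0.60). Of the 5 tail genes, 3 were lower and 2 higher by more than counting error, where 36.5% and 23.4% of well counted genes were, and their summed reads, 1655 and 1628, gave a ratio whose interval held 0 (-0.14 to 0.062). With total-read scaling the interval of Med23 held 0.

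In the head, Med17, a central scaffold of this module, had 825 and 584 reads, a difference of -0.51 (-0.67 to -0.36). Med19 had 832 and 638 reads and a difference of -0.40 (-0.55 to -0.25). Med6 and Med8 were lower too, with differences of -0.35 (-0.65 to -0.06) and -0.23 (-0.37 to -0.10). Med20 was the head gene that was higher by more than counting error, with 348 and 442 reads and a difference of 0.33 (0.12 to 0.54), and its partner in the movable jaw of the head, Med18, had 126 and 150 reads and a difference of 0.23 (-0.11 to 0.59). The other 6 of the 12 head genes (Med11, Med22, Med27, Med28, Med29 and Med30) had differences from -0.16 to 0.09. In the middle, Med9, Med7 and Med1 were lower. Med1, the docking subunit for nuclear receptors, had 1845 and 1656 reads and a difference of -0.17 (-0.27 to -0.07). Med9 had 338 and 270 reads and a difference of -0.34 (-0.57 to -0.10), and Med7 had 284 and 229 reads and a difference of -0.32 (-0.58 to -0.07). The other middle genes (Med4, Med10, Med21, Med26 and Med31) had differences from -0.10 to 0.15 with intervals that held 0. With total-read scaling the intervals of Med6 and Med7 held 0 and that of Med21 lay above it.

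The backbone gene Med14, which joins the modules, was higher, with 1208 reads in Ctrl and 1387 in TSA and a difference of 0.18 (0.07 to 0.30). The kinase module, which binds Mediator reversibly and can keep it from Pol II, had 2 of 4 genes higher and none lower by more than counting error, beside 23.4% and 36.5% of well counted genes. Med12, which activates the kinase, had 396 and 484 reads, a difference of 0.28 (0.08 to 0.47), but exons of Gm21986 overlap its 3' end on the same strand, so its reads are uncertain. Med13l had 973 and 1188 reads, a difference of 0.27 (0.15 to 0.40), while its paralog Med13 had 412 and 408 reads, a difference of -0.03 (-0.23 to 0.17). Med12l had 13 and 22 reads, too few to tell the libraries apart (-0.31 to 1.86). The summed reads of the 4 genes, 1794 and 2102, gave a log2 ratio of 0.21 (0.12 to 0.31). The partners of this module that carry other symbols were Ccnc (cyclin C), with 267 and 347 reads and a difference of 0.36 (0.13 to 0.60), and the kinase genes Cdk19, with 550 and 743 reads and a difference of 0.42 (0.26 to 0.58), and Cdk8, with 381 and 331 reads and a difference of -0.22. The paralogous kinases thus differed in opposite directions, though the interval of Cdk8 ended just below 0 and held 0 with total-read scaling.

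**Figure D4:**
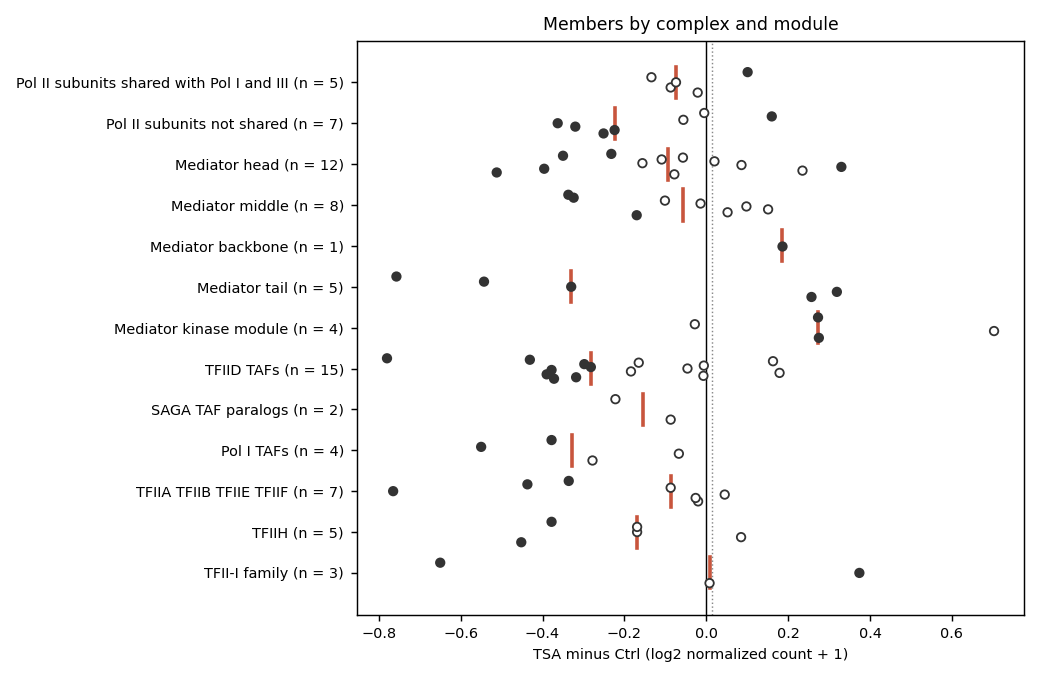
Difference (x axis, TSA minus Ctrl on the log2 scale) of the tested members by complex or module, with the number tested in brackets. Filled points are genes whose 95% counting interval excluded 0, red bars are medians and the dotted line is the median of all tested genes (0.015); TFIID TAFs have a median of -0.28 and the kinase module of 0.27.

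Of the 15 tested TAFs of TFIID, 8 were lower and 0 higher by more than counting error, beside 36.5% and 23.4% of well counted genes, with a median of -0.28. With total-read scaling they were 7 and 1, beside 27.8% and 30.2%. Taf1, on the X chromosome from 101532734 to 101601789, encodes the largest TAF, which reads acetylated histones. It had 1553 reads in Ctrl and 1212 in TSA, a difference of -0.37 (-0.48 to -0.26). Taf3, whose PHD finger reads methylated histone H3 at active promoters, had 1584 and 1230 reads, a difference of -0.38 (-0.49 to -0.27). Taf1 and Taf3 were lower by nearly the same amount, and so were Taf12 (-0.39), Taf1d (-0.38) and Gtf2h5 (-0.38), so the value was not particular to them. Taf10, Taf9 and Taf12 are built into both TFIID and the coactivator SAGA. Taf10 had 3988 and 3231 reads, a difference of -0.32 (-0.39 to -0.25). Taf9 had 1072 and 803 reads, a difference of -0.43 (-0.56 to -0.30), but its 3' end overlaps exons of Ak6 on the same strand, so its reads are uncertain. Taf12 had 791 and 609 reads, a difference of -0.39 (-0.55 to -0.24). The intervals of all 3 lay below 0. For the TAF genes that belong to SAGA alone the intervals held 0, with differences of -0.09 for Taf5l (774 and 736 reads) and -0.22 for Taf6l (133 and 115 reads), and the interval of Taf6l, -0.60 to 0.15, held the values of the 3 genes as well.

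The lowest of all tested members was Taf9b, a paralog of Taf9, on the X chromosome from 106206883 to 106221158. It had 130 reads in Ctrl and 76 in TSA, a difference of -0.78 (-1.22 to -0.37). Taf6 had a difference of -0.30 (-0.54 to -0.06), which did not exclude 0 with total-read scaling, and Taf4b one of -0.28 (-0.48 to -0.08). For other TAFs the interval held 0. Taf5, a scaffold of the complex, had 674 and 678 reads (-0.16 to 0.15), and Taf11 had 408 and 410 reads. Its histone-fold partner Taf13 had 264 and 302 reads, a difference of 0.18 (-0.06 to 0.42), which lay above 0 with total-read scaling, and Taf8 had a difference of 0.16 (-0.20 to 0.53). Taf2, Taf4a and Taf7 had differences of -0.18, -0.05 and -0.17 with intervals that held 0. The TATA-binding protein gene Tbp itself had 240 and 232 reads, a difference of -0.06 (-0.33 to 0.20), while the related Tbpl1 had 537 and 765 reads and a difference of 0.49 (0.34 to 0.66).

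The genes of SL1, which places Pol I on ribosomal DNA, carry TAF names but are no part of the Pol II machinery. All 4 had lower values in the TSA library (3 with total-read scaling), and 2 were lower by more than counting error, beside 57.1% and 36.5% of well counted genes. Taf1d had 4386 and 3408 reads, a difference of -0.38 (-0.44 to -0.31), and Taf1c had 186 and 128 reads, a difference of -0.55 (-0.89 to -0.22). Exons of small RNA genes overlap the 3' end of Taf1d on the same strand, so its reads are uncertain. On the opposite strand, exons of another gene lie within the last 500 bases of 11 members, which are Polr2b, Polr2j, Med10, Med12l, Med19, Med26, Taf1c, Taf1d, Taf3, Taf5 and Taf6, and the sources used here do not state whether counting used strand. Taf1a and Taf1b had differences of -0.28 and -0.07 with intervals that held 0. Taf15 had 650 and 563 reads, a difference of -0.22 (-0.39 to -0.06) that did not exclude 0 with total-read scaling.

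Among the general factors, the subunits of TFIIF were both lower. Gtf2f1 had 1041 and 776 reads, a difference of -0.44 (-0.57 to -0.30), and Gtf2f2 had 1007 and 805 reads, a difference of -0.34 (-0.47 to -0.20). TFIIF escorts Pol II into the assembly, and the intervals of its subunits overlapped. In TFIIE, which recruits TFIIH, the subunits parted. Gtf2e1, on chromosome 16 from 37509790 to 37539789, had 233 and 138 reads and a difference of -0.77 (-1.08 to -0.46). Gtf2e2 had 897 and 853 reads and a difference of -0.09 (-0.22 to 0.05), so these intervals did not overlap. For TFIIA and TFIIB, which stabilise the factors on the promoter, the intervals held 0. Gtf2a1 had 645 and 642 reads (-0.18 to 0.14), Gtf2a2 had 1022 and 1014, and Gtf2b had 458 and 477 (-0.14 to 0.23).

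In TFIIH, which also serves nucleotide excision repair, Gtf2h1 had 1585 and 1170 reads, a difference of -0.45 (-0.56 to -0.34). Gtf2h5, its smallest subunit, had 2096 and 1628 reads, a difference of -0.38 (-0.47 to -0.28). Gtf2h2, Gtf2h3 and Gtf2h4 had differences of 0.09, -0.17 and -0.17 with intervals that held 0. The enzymes of TFIIH have other symbols and did not follow these 2 genes. The helicase gene Ercc2 had 379 and 466 reads, a difference of 0.28 (0.09 to 0.48), and Ercc3 had 756 and 758. The kinase gene Cdk7 had 347 and 401 reads, a difference of 0.19 (-0.02 to 0.41), its assembly factor Mnat1 551 and 631, a difference of 0.18 (0.01 to 0.35), and its cyclin Ccnh 821 and 699, a difference of -0.25 (-0.39 to -0.10). Over the 10 partner genes of TFIID, TFIIH and Mediator without a member symbol, 2 were lower and 5 higher by more than counting error, beside 36.5% and 23.4% of well counted genes, with a median of 0.19. With total-read scaling they were 1 and 6, beside 27.8% and 30.2%.

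The TFII-I family genes, neighbours on chromosome 5, differed in 3 ways. Gtf2i had 876 and 890 reads, a difference of 0.0080 (-0.13 to 0.14). Gtf2ird1 had 235 and 308 reads, a difference of 0.37 (0.13 to 0.63), the highest of the well counted members. Gtf2ird2 had 100 and 64 reads, a difference of -0.65 (-1.13 to -0.19). These genes are similar in sequence, so the division of reads among them is uncertain.

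Other genes that act on Pol II were read from lists chosen by their known roles. Of 37 tested pausing and elongation genes, 20 were lower and 5 higher by more than counting error (16 and 6 with total-read scaling), with a median of -0.20. For this list and those that follow, the shares of well counted genes were 36.5% lower and 23.4% higher, and with total-read scaling 27.8% and 30.2%. Larp7, which holds the 7SK RNA that restrains P-TEFb, had 2140 and 1283 reads, a difference of -0.75 (-0.85 to -0.65). Ccnt1, a cyclin of P-TEFb, had 218 and 148 reads, a difference of -0.57 (-0.88 to -0.27), while its paralog Ccnt2 had 219 and 292, a difference of 0.40 (0.14 to 0.66). The gene of this list past 2-fold was Tcea2, a form of the elongation factor TFIIS, with 36 and 80 reads and a difference of 1.12 (0.55 to 1.75).

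Integrator, which cuts nascent transcripts near promoters, had 9 of 14 tested genes lower and 1 higher by more than counting error (8 and 2 with total-read scaling) and a median of -0.26. Ints6 had 324 and 170 reads, a difference of -0.94 (-1.22 to -0.67), and Ints4 had 1045 and 634, a difference of -0.73 (-0.88 to -0.59). Ints9 was higher, with 557 and 696 reads and a difference of 0.31 (0.14 to 0.47). Among 17 genes of tail phosphatases and assembly factors, 6 were lower and 2 higher (4 and 2 with total-read scaling), with a median of -0.08, and the lower share of 35.3% was near that of well counted genes. The higher pair were the small tail phosphatase genes Ctdsp1, with 109 and 201 reads and a difference of 0.86 (0.53 to 1.22), and Ctdsp2, with 297 and 490 reads and a difference of 0.71 (0.50 to 0.92).

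For the other polymerases, 7 of 11 tested Pol I genes were lower and 0 higher by more than counting error (7 and 2 with total-read scaling), with a median of -0.20, and 12 of 21 tested Pol III genes were lower and 3 higher (8 and 4 with total-read scaling), with a median of -0.24. Polr1e of Pol I had 383 and 261 reads, a difference of -0.57 (-0.80 to -0.34). Polr3d of Pol III had 763 and 507 reads, a difference of -0.60 (-0.77 to -0.44). The Pol III subunit paralogs Polr3g, with 400 and 474 reads, and Polr3gl, with 81 and 164 reads, had differences of 0.23 (0.04 to 0.43) and 0.99 (0.61 to 1.41). As shares, 63.6% of the tested Pol I genes and 57.1% of the tested Pol III genes had an interval wholly below 0, beside 40.0% of the members, 36.5% of well counted genes and 28.0% of all tested genes. With total-read scaling the Pol III share was 38.1% and that of well counted genes 27.8%.

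**Figure D5:**
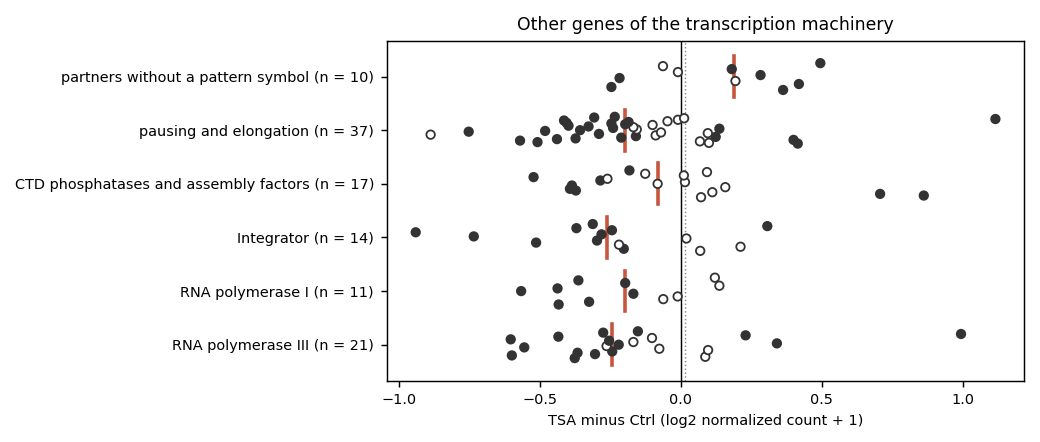
Difference (x axis, TSA minus Ctrl on the log2 scale) of the tested genes in 6 lists of other transcription machinery, with the number tested in brackets. Filled points are genes whose 95% counting interval excluded 0, red bars are medians and the dotted line is the median of all tested genes; the medians run from -0.26 for Integrator to 0.19 for the partner genes.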

How the data were processed

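Total RNA from 1 Ctrl and 1 TSA culture was made into QuantSeq 3' libraries and sequenced as single-end 75-nt reads. The submitters' processing notes name Bowtie2, bedtools and the mm10 build, and the study's methods name ExDEGA. Versions, annotation, strand use and normalization are not given in the sources used here. The authors deposited 1 log2 value per gene and library, found from the values to be log2 of a normalized count plus 1, to 3 decimals.

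Reads were recovered as 2 to the power of the value, minus 1, divided by the step of 1 read (1.005 normalized counts for Ctrl, 0.995 for TSA). Among values of 1 to 300 reads, 99.95% (Ctrl) and 99.94% (TSA) lay within 0.1 of a whole number. For the best counted member the decimals leave an uncertainty of about 1.53 reads. The trimmed mean of M-values differed from the authors' scaling by -4.45e-05 on the log2 scale. Differences used the deposited values as they are, and intervals the recovered reads. Because 1 library per condition has no replicate, no p-value was computed. Intervals and floors cover counting error only, since PCR copies could not be told apart.

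The members, lists and rules were chosen with earlier results of these data known. All members could be named. From the other lists, genes past 2-fold and, among well counted genes, the 3 highest and 3 lowest were eligible, together with the markers. The 10 partner genes, except those that this rule covers, were named after their values were seen. Positions are from GENCODE M21 (GRCm38, matched by symbol, Taf4a as Taf4), promoters from RefSeq (GRCm38.p6). Alternatives changed the scaling, pseudocount, filter, threshold and membership. Steps were tested on simulated data. Intervals were computed with scipy 1.17.1, tables handled with pandas 2.3.3 and numpy 2.4.6, and plots drawn with matplotlib 3.10.9, under Python 3.11.15.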

Additional observations from a re-analysis of the deposited data

How the results depend on the processing

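No paired analysis was possible because the Ctrl and TSA conditions hold a single library each, which also means that none could be left out. The trimmed mean of M-values, the median of ratios and pseudocounts of 0.1 and 5 changed no count of members and no member's side of 0. Scaling by total reads ended the call of 5 members and added 2, giving 1 higher TAF, and turned the median of Mediator to 0.03. Leaving out Rn45s from that total ended 7 and added 3, with 6 lower Mediator genes and 1 higher TAF. The upper quartile moved the most counts. It raised the median of all tested genes by 0.22, to 0.24. The shares of other genes called are not given here for the upper quartile or for the total without Rn45s. Counts of members on those scales therefore have no background. With the upper quartile 15 members were lower and 28 higher. The groups then had 1 lower and 6 higher genes (Polr2, median 0.14), 3 and 11 (Med), 7 and 4 (Taf) and 4 and 7 (Gtf2), and the medians of all members (0.10), Med (0.18) and Gtf2 (0.055) also turned positive, while that of Taf was -0.026. Of the members called lower, Taf15, Med1 and Polr2b changed sign, to 0.0024, 0.054 and 0.00042. Since a scaling moves all genes alike, the order of the groups by their medians stayed the same. Without a filter 1 member passed 2-fold, Med9os, and at 1.5-fold 5 members passed. The share of other genes past 1.5-fold is not given here, so the count of 5 has no background. Without the members of other roles 28 members were lower and 8 higher. The Taf group then had 8 lower genes and a median of -0.22. No Gtf2 gene was then higher (0), since Gtf2ird1 was the gene that was. With 1 library per condition, depth sets only the counting error, and a difference between cultures of the same treatment was not measured.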

Other observations

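The difference of a gene was set against its features over all genes with a position, as a description across genes, which share the 2 libraries and are not independent. Over 11656 tested genes the difference had a Spearman's rho of -0.35 with the mean normalized count, so that genes with few reads had the higher values in the TSA library, and over the 7873 well counted genes it had a rho of -0.18. Over 79 tested members the rho was -0.029. For the span of the gene the values were 0.078 over tested genes and 0.0070 over the members, and for the length of the longest transcript 0.038 and 0.0051.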
